A study of Mus musculus with 6 samples.

Results

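The genes described here are 29 markers of neuroectoderm, the germ layer territory that gives rise to the nervous system, and of neurons. They were taken from a fixed list of gene symbols and fall into 20 progenitor genes, 3 proneural genes and 6 neuronal genes, out of 19938 genes with a probe set of their own in the table. Every probe set was used that the platform annotation gives to 1 of these symbols alone, which came to 30 probe sets because Pou3f2 has 2. The study compared undifferentiated mouse embryonic stem (ES) cells of the wild-type parental line w9.5 (WT) with Cl34, an ES cell clone whose labelled genotype is Hira-/- (Hira-null). There were 3 biological replicates of each line, and each was hybridised to an Affymetrix Mouse Gene 1.0 ST array, which reads a gene through a set of short probes. Both lines were grown in serum-containing medium with ESGRO, a preparation of leukaemia inhibitory factor that holds ES cells undifferentiated. The series' design text speaks of cells taken at different stages of confluence, and no label gives the stage of an array. Hira-null is 1 clone, so what Hira loss does and what else sets this clone off from w9.5 cannot be told apart. How far the replicates were separate cultures is not labelled, and a p-value here reflects only array-to-array spread, part of which may be technical.

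Neuroectoderm forms by default from pluripotent epiblast when signals for other lineages are absent. Progenitor transcription factors such as SOX1 and PAX6 appear first, the basic helix-loop-helix proneural factors NEUROG1, NEUROG2 and NEUROD1 then drive cells out of division, and cytoskeletal and adhesion genes such as Tubb3, Dcx and Ncam1 mark the neurons that follow. In ES cells the promoters of many such developmental regulators are rich in CpG dinucleotides and carry both active and Polycomb-linked histone marks while transcription stays low. HIRA is a histone chaperone that places the histone variant H3.3 into chromatin outside DNA replication, at active genes and at such promoters.

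Most of these genes differed little between the lines. Of the 30 probe sets, 25 passed a filter that asked for at least 3 of 6 arrays above a log2 value of 3.78, and all 25 lay above it on all 6 arrays, so none passed through 1 line alone. None of the 25 passed the test over the whole table (limma, 0 members at an adjusted p under 0.05), where 1 of 25142 probe sets, or 0.00398%, did. At an unadjusted p under 0.05 there were 2 members, Pax6 and Nes, both lower in Hira-null arrays. That is 2 of 25 against 10.1% of all probe sets in either direction and 6.06% in the lower direction. The arrays of the lines did not overlap for 3 members, against 15.3% of all probe sets, namely 2 lower (Pax6 and Ncam1, where the table has 8.17%) and 1 higher (Six3, where it has 7.09%). All of these shares lie close to the table's own, so the list as a whole did not stand apart. The median log2 fold change, Hira-null minus WT, was -0.01 over the 25 genes and -0.0067 over 15199 genes. Differences smaller than 0.25 in size were found for 18 of 25 member genes and for 70.6% of all genes. With 3 arrays a line the precision is limited, and the median standard error (SE) of a log2 fold change over all probe sets was 0.17.

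**Figure D1:**
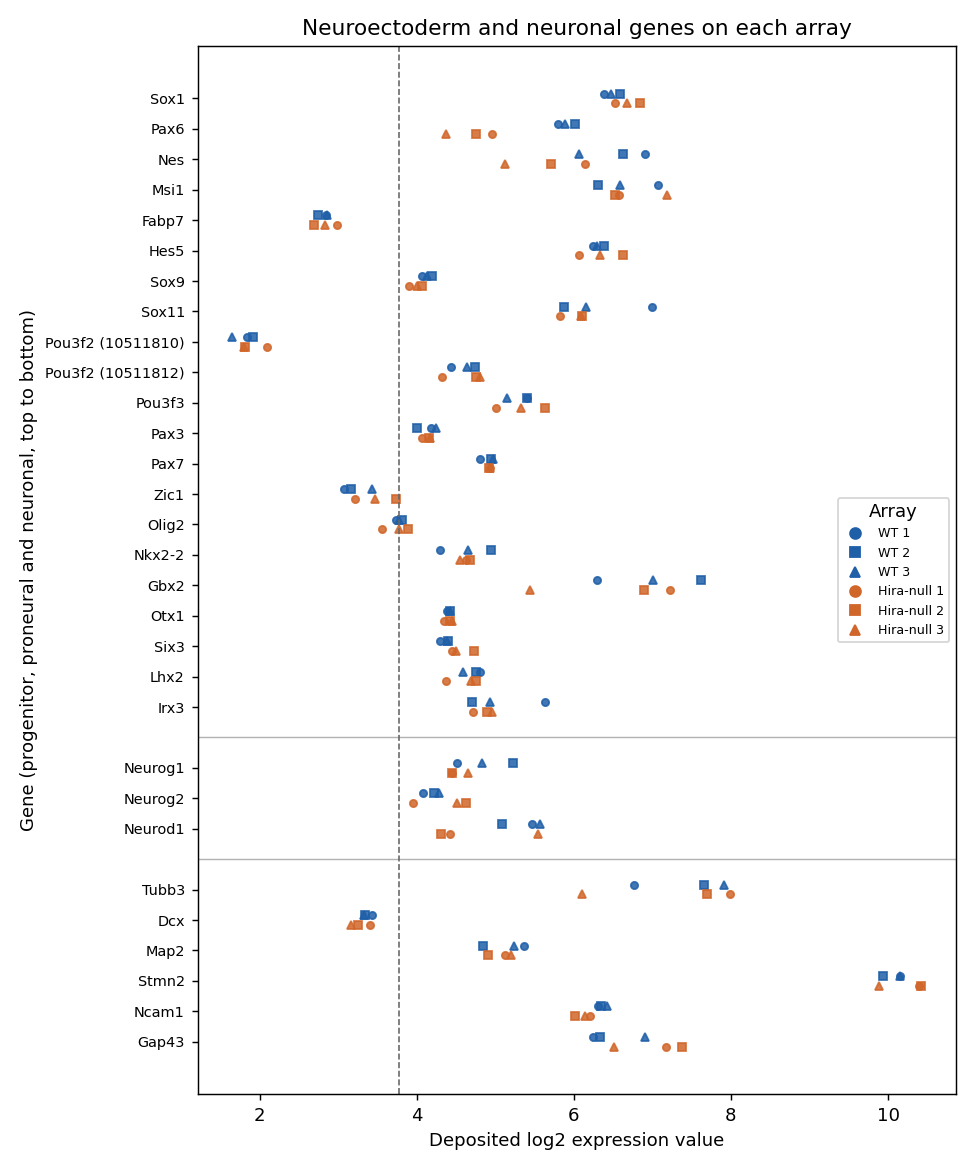
Deposited log2 value (x axis) of each of the 30 probe sets on each of the 6 arrays, with progenitor, proneural and neuronal genes from top to bottom, and the filter value of 3.78 as a dashed line. WT and Hira-null symbols separate for Pax6, while those of most other genes lie on top of each other; values are not comparable between genes.

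The arrays bear the labels of undifferentiated ES cells. All 10 markers of pluripotent cells were kept, among them Pou5f1 at 10.91 to 11.58, Nanog at 10.70 to 11.12 and Sox2 at 9.44 to 10.41 over the 6 arrays. None was called, against 0.00398% of all probe sets. At an unadjusted p under 0.05 there was 1, against 10.1% of all probe sets, namely Klf4, higher without overlap (0.41, SE 0.13, limma adjusted p = 0.377). The mean log2 value of the 10 markers was 10.24 to 10.31 on the WT arrays. On the Hira-null ones it was 10.48, 10.39 and 10.06, so that Hira-null replicate 3 was the lowest array. The Hira probe set read 7.49, 7.86 and 7.83 on the WT arrays and 7.40, 7.05 and 6.81 on the Hira-null ones (limma adjusted p = 0.352), and the deleted part of the gene is not labelled. Array medians were 4.93 to 5.02. Hira-null replicate 3 correlated least with the others over all probe sets (r from 0.968 to 0.977, against 0.977 to 0.990 among the other 5 arrays), and several differences are also given without it.

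Pax6, a paired-box and homeobox transcription factor needed for the eye, forebrain and spinal cord, had the largest difference of the list. It read 5.80, 6.01 and 5.89 on the WT arrays and 4.96, 4.75 and 4.37 on the Hira-null ones. The lowest WT array lies 0.84 above the highest Hira-null array, and Hira-null replicate 3 is the lowest of all. The means were 5.90 ± 0.11 and 4.69 ± 0.30 (SD, n = 3 each), a log2 fold change of -1.21 (SE 0.18, 95% confidence interval -1.62 to -0.79). Between the means this is 2.31-fold lower, and 3 of 3 Hira-null arrays lay below every WT array. It did not pass over all probe sets (limma adjusted p = 0.220, and 0.0908 to 0.604 over the alternatives). In rank, 28 of 25142 probe sets had an unadjusted p as small or smaller. Without Hira-null replicate 3 the difference was -1.05 (limma adjusted p = 0.314), and over all alternatives it ran from -1.34 to -1.05.

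The gene table of GRCm38.p6 has 2 start sites with sequence for Pax6. The 250 bases before each are shown because Pax6 had the largest difference of the list, with those of Nes, the other member at an unadjusted p under 0.05, and of Six3, which read higher without overlap. Sequences are from RefSeq, on the strand of the gene, 5′ to 3′, and capitals mark CpG dinucleotides. The windows are chr2:105668646-105668895 (plus strand) and chr2:105682213-105682462 (plus strand) for Pax6, chr3:87970843-87971092 (plus strand) for Nes and chr17:85620584-85620833 (plus strand) for Six3.
Pax6 upstream start: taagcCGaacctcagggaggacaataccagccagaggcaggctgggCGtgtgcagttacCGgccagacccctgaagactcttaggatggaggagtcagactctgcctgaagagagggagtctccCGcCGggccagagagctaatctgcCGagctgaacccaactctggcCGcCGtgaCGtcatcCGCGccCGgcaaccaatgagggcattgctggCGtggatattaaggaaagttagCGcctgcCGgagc
Pax6 downstream start: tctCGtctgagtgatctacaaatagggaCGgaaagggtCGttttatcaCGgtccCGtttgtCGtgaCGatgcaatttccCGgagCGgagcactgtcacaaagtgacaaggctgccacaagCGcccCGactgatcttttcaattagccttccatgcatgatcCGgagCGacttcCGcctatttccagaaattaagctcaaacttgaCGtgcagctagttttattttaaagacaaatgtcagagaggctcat
Nes: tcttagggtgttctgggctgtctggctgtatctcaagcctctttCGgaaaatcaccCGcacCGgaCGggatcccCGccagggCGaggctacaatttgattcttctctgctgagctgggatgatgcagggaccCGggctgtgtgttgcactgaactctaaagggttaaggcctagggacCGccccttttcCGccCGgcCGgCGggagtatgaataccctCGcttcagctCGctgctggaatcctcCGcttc
Six3: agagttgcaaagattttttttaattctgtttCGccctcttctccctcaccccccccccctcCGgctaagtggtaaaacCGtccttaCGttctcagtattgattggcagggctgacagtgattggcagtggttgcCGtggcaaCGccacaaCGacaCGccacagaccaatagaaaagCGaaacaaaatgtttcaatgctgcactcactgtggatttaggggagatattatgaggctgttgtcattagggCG

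Both Pax6 windows hold 15 CpGs, as does that of Nes, and the Six3 window holds 10. Such density was common in the list. Of the 29 genes, 22 matched an entry in the promoter table, with 25 windows, and the median window held 17 CpGs. Over 21254 windows of protein-coding genes the median was 10. A GC content above 50% together with an observed over expected CpG ratio above 0.6 was met by 18 of 25 member windows and by 41.2% of protein-coding windows. The downstream Pax6 window missed that mark on GC content alone, at 47.6% with a ratio of 1.06. Of 12 kept members with a window and a difference smaller than 0.25 in size, 7 had a window with at least the 15 CpGs of Pax6 and Nes, up to 34 for Map2, and 5 had fewer, down to 8 for Neurog2 and Nkx2-2. The 3 letter strings searched on both strands were CAGATG, the E-box form read by NEUROG and NEUROD proteins, ACAAAG, read by SOX proteins, and TATAAA, the TATA box. They occurred in 2, 3 and 3 of the 25 member windows (8.0%, 12.0% and 12.0%), against 12.4%, 14.9% and 11.6% of protein-coding windows. The downstream Pax6 window holds 1 ACAAAG, and the upstream Pax6 window and those of Nes and Six3 hold none of the 3.

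The genes beside Pax6 on chromosome 2 were read as well, taking the 5 nearest genes on each side that were named and kept. Genes were placed by their position in the gene table, and where each probe set matches the genome was not checked. The differences of the 10 genes ran from -0.61 to 0.25 with a median of -0.07. With limma 0 of 10 passed (smallest adjusted p = 0.331), and 1 was at an unadjusted p under 0.05, against 0.00398% and 10.1% of all probe sets. The lines did not overlap for 2 of the 10, Wt1 and Eif3m (-0.18), both lower, against 15.3% of all probe sets in either direction. Rcn1 and Elp4, the closest on either side, stood at -0.07 and 0.25. Elp4, whose introns hold long-range enhancers of Pax6, read 7.29, 7.20 and 7.42 on the WT arrays and 7.46, 7.41 and 7.79 on the Hira-null ones. The neighbour with the largest difference was Wt1, a zinc finger transcription factor of kidney and gonad. It read 5.23, 5.70 and 5.59 on the WT arrays and 5.03, 4.97 and 4.69 on the Hira-null ones, without overlap, and stood at -0.61 (SE 0.17, limma adjusted p = 0.331). Its antisense neighbour Wt1os stood at -0.08. Chromosome 2 as a whole had a median of 0.02 over 1208 genes.

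**Figure D2:**
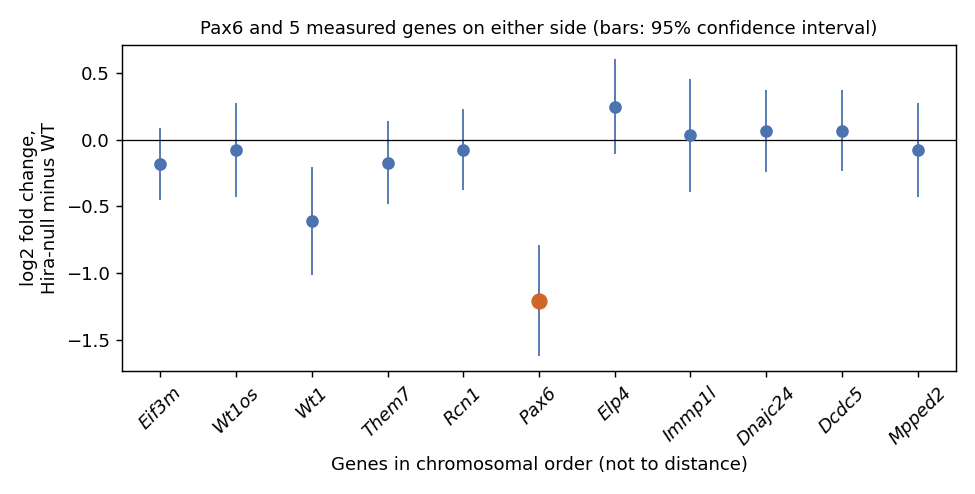
Log2 fold change, Hira-null minus WT (y axis), for Pax6 (orange) and the 5 measured genes on each side in chromosomal order (x axis), with 95% confidence intervals. Pax6 at -1.21 and Wt1 at -0.61 lie below the other genes, which run from -0.18 to 0.25.

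Nes encodes nestin, an intermediate filament protein of neural progenitors that is also made by other dividing and mesenchymal cells. Its values were 6.90, 6.62 and 6.07 on the WT arrays and 6.14, 5.71 and 5.13 on the Hira-null ones. The lines overlap, since Hira-null replicate 1 reads above WT replicate 3. The difference was -0.87 (SE 0.31, 95% confidence interval -1.60 to -0.14), or 1.83-fold lower (limma adjusted p = 0.409, and 0.348 to 0.704 over the alternatives). It was -0.61 without Hira-null replicate 3 and -0.42 without both that array and WT replicate 1. Of 16 fibroblast and feeder markers 10 were kept, 6 of them lower and 4 higher, with 2 lower and 1 higher at an unadjusted p under 0.05, against 6.06% and 4.06% of all probe sets. The median difference of the 10 was -0.305, against -0.0067 over all genes. Thy1, the marker of this list with the smallest p, was higher without overlap (0.76, SE 0.19, limma adjusted p = 0.285). The 2 lower ones were Twist2 (-0.40, SE 0.13, limma adjusted p = 0.374) and Vim, both also without overlap. Vim, which encodes vimentin, a filament partner of nestin, read 9.71 to 10.55 on the WT arrays and averaged 9.43 ± 0.08 (SD, n = 3) on the Hira-null ones. Its difference was -0.61 (SE 0.23, limma adjusted p = 0.424). The mean log2 value of the fibroblast list was 4.76 to 5.04 in WT and 4.61 to 4.90 in Hira-null arrays, and Postn, Lum, Dcn, Prrx1, Fap and S100a4 were below the filter. Of 11 endoderm markers 9 were kept, with Afp and Ttr below the filter. Of the 9, 8 were lower, against 50.8% of all genes, and 4 were lower at an unadjusted p under 0.05, against 6.06% of all probe sets. The endoderm list averaged 5.88 to 6.23 in WT and 5.49 to 5.77 in Hira-null arrays. The part of such cells in the Pax6 and Nes values was not tested, and fewer cells with a transcript cannot be told apart from less transcript per cell.

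The remaining general progenitor genes differed little. Sox1, a SOXB1 factor and early marker of committed neuroectoderm, read 6.39, 6.59 and 6.47 on the WT arrays and 6.53, 6.84 and 6.68 on the Hira-null ones. These overlap, with Hira-null replicate 2 highest, and the difference was 0.20 (95% confidence interval -0.12 to 0.52). Sox1 lies on chromosome 8, where the median difference of 809 genes was -0.27, a value below that interval. Hes5, a Notch target that holds progenitors undifferentiated, read 6.25 to 6.39 in WT and 6.06 to 6.63 in Hira-null arrays (0.03). Msi1, an RNA-binding protein of neural stem cells, stood at 0.10 with a 95% confidence interval of -0.51 to 0.71, because 1 array of each line read high. Sox11, a SOXC factor of progenitors leaving division, read 6.99, 5.87 and 6.16 on the WT arrays and 5.83, 6.11 and 6.09 on the Hira-null ones. WT replicate 1 alone is high there, and the difference of -0.33 became -0.005 without it. Sox9, of neural stem cells, glia and neural crest, stood at -0.14. The POU factors Pou3f2 and Pou3f3 stood at 0.02 and 0.0067, and the other Pou3f2 probe set, at 1.65 to 2.09, did not pass the filter. Fabp7, a fatty acid binding protein of radial glia, was below the filter on every array, at 2.69 to 2.99.

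Patterning genes, which give the neural tube its axes, had small differences or wide errors, and none passed the test. Six3, of the anterior forebrain and eye, read 4.30, 4.40 and 4.38 on the WT arrays and 4.45, 4.73 and 4.50 on the Hira-null ones. The lines do not overlap but the gap is 0.05, and the difference of 0.20 (SE 0.13) did not pass (limma adjusted p = 0.680). Lhx2, of forebrain and eye, stood at -0.11, and Otx1, of forebrain and midbrain, at -0.0033. Irx3, of the neural plate behind the forebrain, stood at -0.23, and at 0.04 without WT replicate 1, its highest array. Gbx2, of the anterior hindbrain and also a gene downstream of leukaemia inhibitory factor in ES cells, read 6.30, 7.62 and 7.01 on the WT arrays and 7.22, 6.89 and 5.44 on the Hira-null ones. Its range within the Hira-null line, 1.78, exceeds the difference of -0.46 (95% confidence interval -1.68 to 0.76). The dorsal factors Pax3 and Pax7, paralogs of Pax6 that also mark neural crest and somites, stood at -0.0067 and 0.02, with intervals of -0.30 to 0.29 and -0.25 to 0.30. The interval of Pax6 lies below both. Of 13 neural crest markers 11 were kept. Of 10 paraxial mesoderm markers 9 had a probe set and 8 were kept. Tfap2b, Snai2 and Foxc1 were below the filter. Pax3 and Pax7 are in both lists and Sox9 is in the neural crest list, so these lists are not separate from the members. In both lists 0 were called, against 0.00398% of all probe sets. At an unadjusted p under 0.05 there was 1 neural crest marker and 0 paraxial mesoderm markers, against 10.1% of all probe sets. The 1 was Erbb3, higher without overlap (0.36, SE 0.13, limma adjusted p = 0.433). The ventral factor Nkx2-2 stood at -0.01. Olig2, of motor neuron and oligodendrocyte progenitors, lay at 3.56 to 3.89 around the filter value, above it on 2 arrays, and was not tested. The dorsal gene Zic1 was below it on every array, at 3.08 to 3.74.

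**Figure D3:**
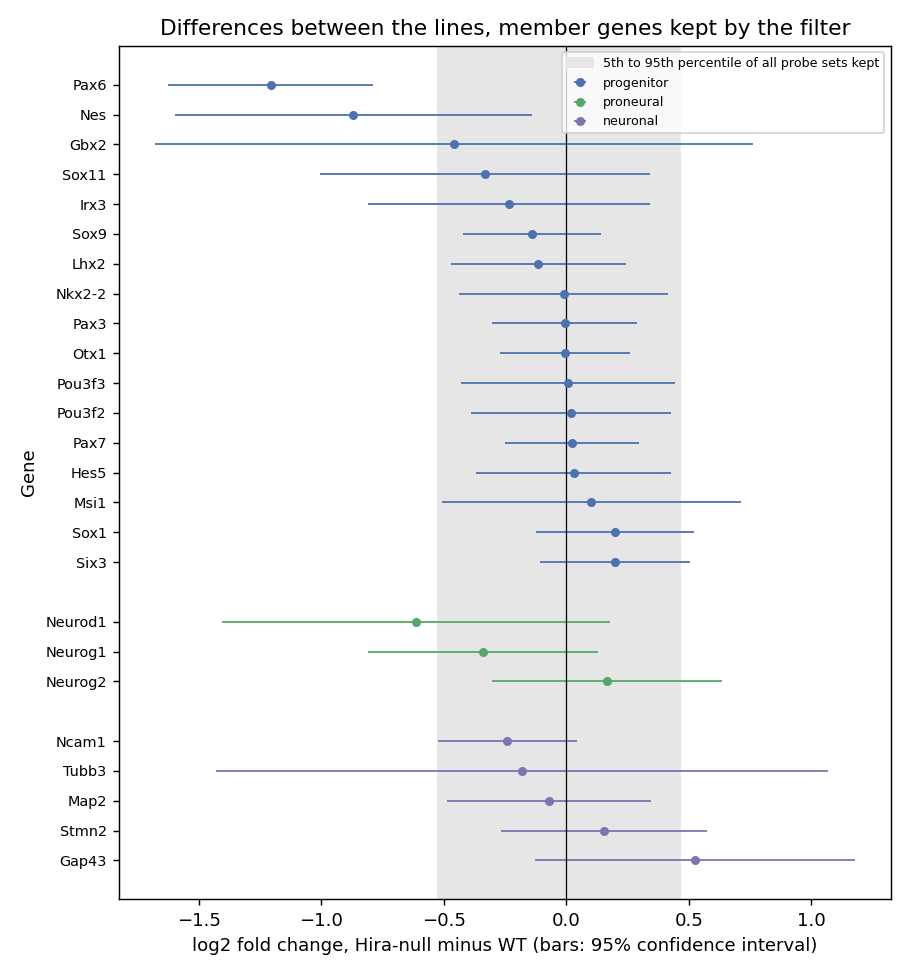
Log2 fold change, Hira-null minus WT (x axis), with its 95% confidence interval for the 25 member genes kept, grouped by role, over a grey band from -0.52 to 0.47 that holds the 5th to 95th percentile of all probe sets kept. Pax6, Nes and Neurod1 lie left of the band and Gap43, at 0.53, right of it.

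The 3 proneural genes differed in direction, with 2 lower and 1 higher in Hira-null arrays and none past the test. Neurod1, a differentiation factor of neurons and endocrine cells, read 5.47, 5.08 and 5.57 on the WT arrays and 4.43, 4.31 and 5.54 on the Hira-null ones. Hira-null replicates 1 and 2 lie below every WT array, while Hira-null replicate 3 reads like WT. The difference was -0.61 (SE 0.34, limma adjusted p = 0.611), and with 1 array left out at a time it ran from -0.39 without Hira-null replicate 2 to -1.0 without Hira-null replicate 3 (limma adjusted p = 0.324). Neurog1, of sensory and spinal neuron precursors, read 4.51, 5.23 and 4.83 on the WT arrays and 4.45, 4.45 and 4.65 on the Hira-null ones, a difference of -0.34 (SE 0.20) that became -0.15 without WT replicate 2 and -0.51 without WT replicate 1. Neurog2, of cortical and spinal precursors, read 4.08 to 4.29 in WT and 3.95 to 4.63 in Hira-null arrays, a difference of 0.17 that became 0.03 without Hira-null replicate 2 and 0.37 without Hira-null replicate 1.

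Of the 6 neuronal genes, 5 were kept, 3 with lower and 2 with higher means in Hira-null arrays. Ncam1, a neural cell adhesion molecule, read 6.31, 6.35 and 6.42 on the WT arrays and 6.21, 6.01 and 6.14 on the Hira-null ones. The lines do not overlap, and the difference was small at -0.24 (SE 0.12, limma adjusted p = 0.571). Gap43, a growth cone protein, had the largest positive difference of the list. It read 6.24, 6.33 and 6.91 on the WT arrays and 7.17, 7.38 and 6.51 on the Hira-null ones, so that Hira-null replicate 3 falls among the WT arrays. The difference was 0.53 (SE 0.28, limma adjusted p = 0.593), and with 1 array left out at a time it ran from 0.35 without Hira-null replicate 2 to 0.78 without Hira-null replicate 3 (limma adjusted p = 0.383). Stmn2, a tubulin-binding protein of growing axons, read 10.15, 9.94 and 10.15 on the WT arrays and 10.39, 10.42 and 9.89 on the Hira-null ones, a difference of 0.15 that became 0.06 without Hira-null replicate 2 and 0.33 without Hira-null replicate 3. Map2, a microtubule protein of dendrites, stood at -0.07. Dcx, a microtubule protein of migrating neurons, was below the filter on every array, at 3.17 to 3.43.

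**Figure D4:**
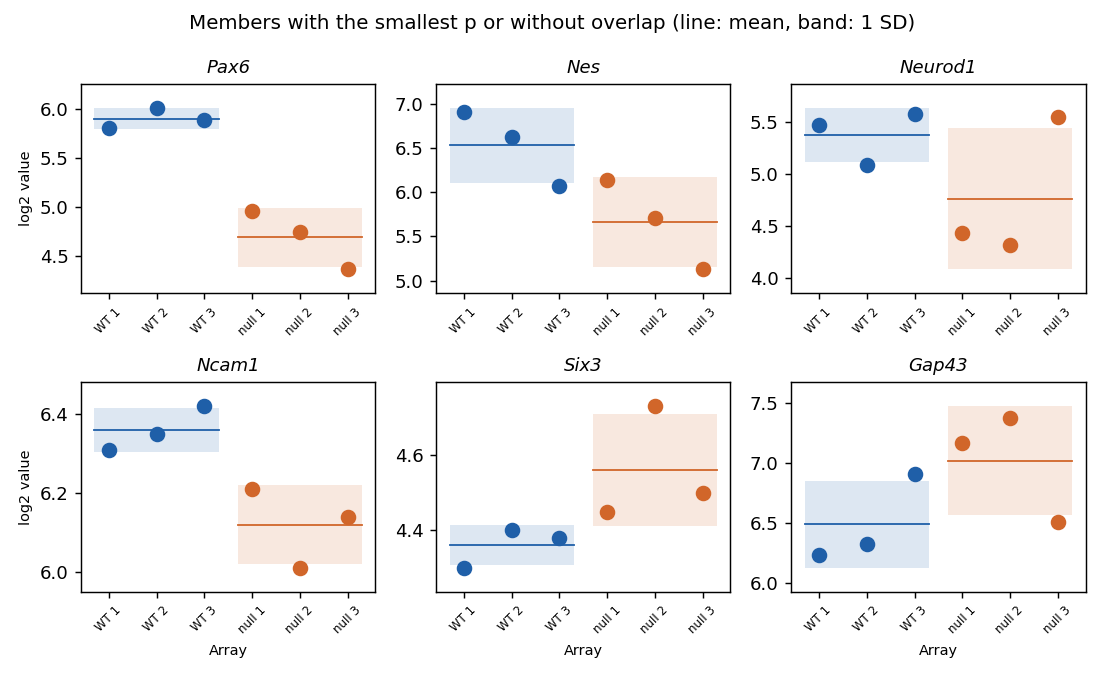
Log2 values (y axis) on the 6 arrays (x axis, WT blue, Hira-null orange) of the 5 members with the smallest unadjusted p and of Six3, with the mean of each line and a band of 1 SD (n = 3). For Pax6 the lowest WT array, at 5.80, lies above the highest Hira-null array, at 4.96; for Neurod1 and Gap43 Hira-null replicate 3 falls among the WT arrays.

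Tubb3, the neuronal beta-tubulin, showed a spread within each line that was larger than the difference between them. It read 6.76, 7.66 and 7.91 on the WT arrays and 7.99, 7.70 and 6.10 on the Hira-null ones. WT replicate 1 and Hira-null replicate 3 were the lowest arrays, and the difference of -0.18 (SE 0.53) turned to 0.40 without Hira-null replicate 3 and to 0.06 without both arrays. The same 2 arrays were lowest for Gbx2 and Nkx2-2 and highest for Msi1 and Irx3. This arrangement was looked for after the values were seen. Both arrays lay below the other 4 for 3 of 25 members and for 12.9% of all probe sets, and above them for 2 of 25 members and 13.0% of all, so the members follow it about as often as other genes. For Pax6 these 2 arrays were the lowest of their own lines, at 5.80 and 4.37, and the lines separated without them too (-1.10, limma adjusted p = 0.352).

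**Figure D5:**
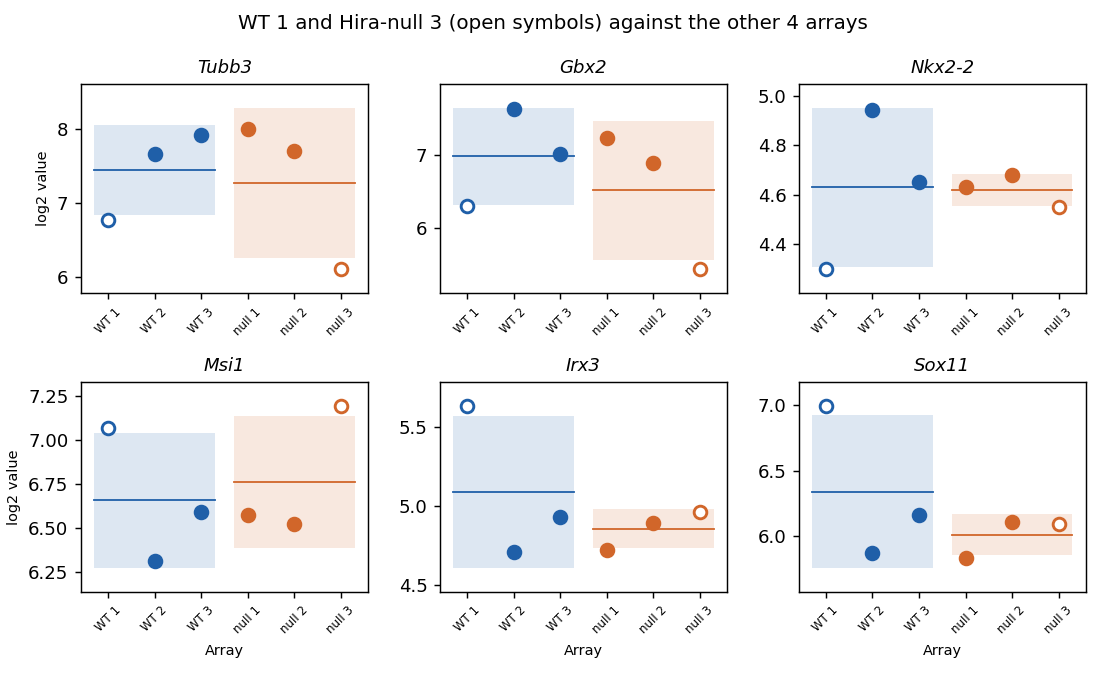
Log2 values (y axis) on the 6 arrays (x axis) of 6 members with a wide spread within a line, with WT replicate 1 and Hira-null replicate 3 as open symbols, the mean of each line and a band of 1 SD (n = 3). The open symbols are lowest for Tubb3, Gbx2 and Nkx2-2 and highest for Msi1 and Irx3, while for Sox11 only WT replicate 1, at 6.99, stands apart.

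Members on chromosomes 8 and 11, where differences over all genes were shifted downward (medians -0.27 and -0.24, against 0.02 on the other chromosomes), were Sox1, Tubb3 and Irx3 on 8 and Otx1 and Sox9 on 11. Their differences ran from -0.23 to 0.20, and Pax6 and Nes lie on chromosomes 2 and 3. Without these 5 genes the median of the members was -0.0083.

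Other neural genes were read from 3 further lists drawn up from general knowledge. Of 46 other progenitor genes 42 were kept, 23 lower and 19 higher, and 0 were called, against 0.00398% of all probe sets. At an unadjusted p under 0.05 were 5 lower and 1 higher, where the table has 6.06% and 4.06%. The 4 with the smallest p were the Notch ligand genes Dll3 (-0.64, SE 0.14) and Jag1 (-0.92, SE 0.26), the glutamate transporter gene Slc1a3 of radial glia (0.47, SE 0.14) and the N-cadherin gene Cdh2 (-0.43, SE 0.15), with limma adjusted p of 0.233 to 0.409. Jag1 read 7.05, 7.11 and 7.02 on the WT arrays and 6.61, 6.25 and 5.56 on the Hira-null ones. All 4 genes, picked for their small p, had lines that did not overlap. Of the 43 probe sets of this list, 6 were lower without overlap and 1 higher, against 8.17% and 7.09% of all probe sets. Of 12 other proneural genes 7 were kept, and all 7 had lower means, against 50.8% of all genes. Of the 7, Ebf1 and Neurod2 lie on chromosome 11, where 81.7% of genes were lower. At an unadjusted p under 0.05 were 0, against 10.1% of all probe sets, and the largest difference was at Atoh1 (-0.37, SE 0.17). Ebf1, Myt1 and Ebf3 stood at -0.12, -0.09 and -0.04, each smaller in size than its SE (0.15, 0.14 and 0.12).

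Of 39 other neuronal genes 31 were kept, 11 lower and 20 higher, and 0 were called, against 0.00398% of all probe sets. At an unadjusted p under 0.05 were 2 lower and 5 higher, where the table has 6.06% and 4.06%. Gng3, a G protein subunit gene of neurons, read 6.27, 7.14 and 7.31 on the WT arrays and 8.01, 8.13 and 8.06 on the Hira-null ones, a difference of 1.16 (SE 0.27, limma adjusted p = 0.247). L1cam, an axonal adhesion molecule, Dpysl3, of growth cones, and Syt1, of synaptic vesicles, stood at 0.59, 0.72 and 0.48 (limma adjusted p = 0.312 to 0.393), also without overlap. Of the 32 probe sets of this list, 8 were higher without overlap and 2 lower, against 7.09% and 8.17% of all probe sets. Of 8 glial markers 7 had a probe set and 4 were kept, 1 lower and 3 higher. With limma 0 were called and 0 were at an unadjusted p under 0.05, against 0.00398% and 10.1% of all probe sets. Aldh1l1, an enzyme gene of astrocytes, read 5.41 to 6.27 on the WT arrays and 5.77 to 6.90 on the Hira-null ones, and Mog, of myelin, was higher without overlap (0.19, SE 0.13). Gfap and Aqp4 lay below the filter value on every array, and S100b was above it on 2. The mean log2 value of the 7 was 4.39 to 4.50 on the WT arrays and 4.36 to 4.74 on the Hira-null ones, and the part of glial cells in these values was not tested.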

How the data were processed

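The authors deposited log2 expression values for 35557 probe sets on 6 arrays, made with GCRMA (background correction and normalization for Affymetrix arrays) per the submitters' processing notes. Their range, 1.14 to 14.03, shows the log2 scale. The genome build and annotation were not given in the sources used here. Array medians were about equal, so no further normalization was applied, and a shift common to nearly all genes would be hidden. Probe sets were named from the platform table (21789 with 1 symbol, 1621 with several, never used), with symbols updated through a GRCm38.p6 gene table (21698 matched), which also gave chromosomes and gene order.

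Probe sets with at least 3 of 6 arrays above the 30th percentile (3.78) were kept, 25142 in all. Hira-null minus WT was fitted over all of them with limma 3.58.1 (R 4.3.3, lmFit and eBayes, two-sided, no covariates, Benjamini-Hochberg adjustment, threshold 0.05), and members were read from that fit. The procedure was also checked on simulated data with independent noise for each probe set and array. That check does not cover array patterns or chromosome shifts shared by many genes. For counts of genes the probe set with the highest mean stands for a gene. Named were all 29 members, Hira, Pou5f1, Nanog, Sox2, and from each further neural list the 4 genes with the smallest p. The genes beside Pax6, marker genes of other cell types, and Klf4, Neurod2, Otx2, Zic2, Ina and Krt18 were named after their values were seen. Members and lists were chosen with earlier results of these data known. Alternatives were other filters, normalizations and variance models, arrayWeights, the replicate number as a block, and arrays left out.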

Additional observations from a re-analysis of the deposited data

How the results depend on the processing

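No member passed the test over the whole table under any of the 16 alternatives (limma, smallest adjusted p = 0.0908, for Pax6 with arrayWeights), and Pax6 kept its direction and an unadjusted p of at most 0.00162 under all of them. The precision is limited by 3 arrays a line, and probe signal over background was not analysed here. Over all probe sets the count called, 1, became 2 with the stricter filter, 2 with median centring, 5 with arrayWeights, 0 with the replicate block, and 0 to 41 with arrays left out, the 41 without Hira-null replicate 2. The count of members at an unadjusted p under 0.05, 2, became 4 with arrayWeights (Pax6, Neurod1, Ncam1 and Gap43) and 1 to 5 with arrays left out. Pax6 was among them each time and Nes was not without WT replicate 1 or 2 or Hira-null replicate 2 or 3. The median over members, -0.01, became -0.125 with the stricter filter, which left 14 of them, and -0.115 to 0.005 with arrays left out. Same-numbered arrays did not deviate together over all probe sets (correlations of -0.342, 0.173 and -0.099). No label says whether the numbers pair the arrays, and correlations over 3 arrays a line cannot settle it. With the replicate block 3 members were at an unadjusted p under 0.05 (Pax6, Nes and Neurod1). For Nes the SE fell from 0.31 to 0.14 with the block, at the same difference of -0.87 (limma adjusted p = 0.493).

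Of 389 member values under alternatives, 357 kept their direction and 4 were at 0 to 4 decimals. The sign turned for 13 members whose difference lies within its error. With arrayWeights Pou3f2 was at -0.0133 and Pax7 at -0.0073. With arrays left out the ranges were -0.11 to 0.31 for Msi1, -0.115 to 0.17 for Hes5, -0.155 to 0.17 for Pou3f2, -0.15 to 0.16 for Pou3f3, -0.077 to 0.043 for Pax3 and -0.03 to 0.057 for Pax7. They were -0.175 to 0.145 for Nkx2-2, -0.81 to 0.078 for Gbx2, -0.035 to 0.027 for Otx1, -0.19 to 0.005 for Lhx2, -0.42 to 0.037 for Irx3, -0.54 to 0.40 for Tubb3 and -0.225 to 0.04 for Map2. With 1 array left out at a time, 21 of 25 members moved by over 1.5 times or turned, all but Pax6, Nes, Sox9 and Ncam1. Among those that kept their sign, Sox1 ran from 0.12 to 0.28, Six3 from 0.115 to 0.255 and Sox11 from -0.565 to -0.005. The cause of these turns was not tested.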

Other observations

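Some neural genes outside the list also had WT replicate 1 and Hira-null replicate 3 as their lowest arrays. Both lay below the other 4 arrays for 7 of 43 probe sets of other progenitor genes, against 12.9% of all probe sets. The counts were 1 of 7 for other proneural genes and 8 of 32 for other neuronal genes, where Ina counts with more than 1 probe set. Both lay above the other 4 for 1 of 43, 0 of 7 and 0 of 32, against 13.0% of all. The genes named next were picked out after their values were seen. Otx2, a homeobox factor of epiblast and forebrain, read 6.21, 7.99 and 8.23 on the WT arrays and 8.24, 8.14 and 5.86 on the Hira-null ones. The zinc finger gene Zic2 read 6.73, 8.31 and 7.70 on the WT arrays and 8.24, 7.41 and 6.08 on the Hira-null ones. Ina, the neurofilament protein alpha-internexin, read 6.75, 8.40 and 8.11 on the WT arrays and 7.99, 7.60 and 5.47 on the Hira-null ones at 1 of its probe sets. In each case the 2 low arrays come from different lines, and the differences between the lines were -0.06, -0.34 and -0.73, none past the test. The keratin gene Krt18 of simple epithelia had the reverse order, at 9.22, 7.63 and 7.48 on the WT arrays and 7.31, 7.19 and 10.20 on the Hira-null ones. Whether these arrays differ in confluence was not tested, since no label gives it.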
